A study of Mus musculus with 9 samples.

Results

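A set of 9 basement membrane genes is described here, taken by symbol from the 30407 genes shared by all libraries of the series. They were Col4a1, Col4a2 and Col4a5 (chains of type IV collagen), Lamb1 and Lamc1 (laminin chains), Nid1 and Nid2 (nidogens), Hspg2 (perlecan) and Sparc. All 9 members were found, and all passed the filter on low counts in the tests of SAG, though Nid2 was close to undetected. Single-cell RNA came from mouse embryonic fibroblasts of the line NIH3T3-CG treated with SAG, a small molecule that activates Smoothened and so switches on the Hedgehog pathway. The libraries of Experiment 1 were taken at 0, 17 and 30 h, and their labels do not mention Dox. They are taken here as grown without Dox, which is an assumption that every value given as without Dox over both experiments rests on. Those of Experiment 2 were taken at 0, 19 and 30 h in a no-Dox arm and a Dox arm, and nothing in the labels says what Dox induces. Each of the 9 libraries thus stands for 1 hour of 1 of 3 arms (Experiment 1, and the no-Dox and Dox arms of Experiment 2). No library of the later times is labelled as kept without SAG, so SAG time and time in culture cannot be told apart.

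The basement membrane is a thin sheet of matrix that cells lay down beneath epithelia and around vessels, muscle and nerve. Type IV collagen is secreted as triple helices, most often of α1 and α2 chains, which join into a network. A second network of laminin is tied to it by nidogens and perlecan, and SPARC is a secreted collagen-binding protein that accompanies its assembly. Fibroblasts in culture make many of these proteins. Gli1 and Ptch1, the classical target genes of the Hedgehog pathway, served as its readout.

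Type IV collagen genes lie in pairs, head to head, and the pair that moved in these cells shares its start. In GENCODE vM21 on GRCm38 (mm10), Col4a1 (ENSMUSG00000031502) lies on the minus strand of chromosome 8, 11198423 to 11312826, and Col4a2 (ENSMUSG00000031503) on the plus strand, 11312805 to 11449287. Their annotated first bases overlap by 22 bases, which are the capitals of the 30 bases printed here because they lie in the 5′ end of both annotated genes (RefSeq, GRCm38.p6, chr8:11312801-11312830, plus strand).

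Col4a1 and Col4a2 shared start: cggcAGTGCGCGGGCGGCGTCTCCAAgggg

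The UMIs were counted at 3′ ends, far from this overlap. Col4a5 (ENSMUSG00000031274, chromosome X, 141475385 to 141689234) has no such overlap: 1308 bases separate its start from that of Col4a6. Lamb1 (ENSMUSG00000002900) lies on chromosome 12, 31265234 to 31329644. The bases before the first annotated exon of these 2 genes are printed to set beside the shared start, since Col4a5 did not follow its relatives and Lamb1 was higher with Dox. Capitals mark GC boxes (GGGCGG) and CCAAT boxes (CCAAT) on either strand, in chrX:141475169-141475384 and chr12:31265043-31265233, both on the plus strand and from RefSeq, GRCm38.p6.

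Col4a5 upstream: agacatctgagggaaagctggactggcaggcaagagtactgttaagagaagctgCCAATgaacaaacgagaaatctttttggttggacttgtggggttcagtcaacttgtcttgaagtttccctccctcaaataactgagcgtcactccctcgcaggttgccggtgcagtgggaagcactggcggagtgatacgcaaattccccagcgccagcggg

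Lamb1 upstream: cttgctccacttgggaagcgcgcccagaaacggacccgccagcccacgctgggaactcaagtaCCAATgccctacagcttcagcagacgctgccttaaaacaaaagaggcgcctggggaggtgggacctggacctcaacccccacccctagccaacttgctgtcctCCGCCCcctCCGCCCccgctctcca

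The Col4a5 stretch held 0 GC boxes and 1 CCAAT box, and the Lamb1 stretch 2 and 1. In the full windows from 250 bases before to 50 after the start, 74.0% of the Col4a1 bases and 73.7% of the Col4a2 bases were G or C, against 52.7% for Col4a5 and a median of 52.7% over 32817 promoters of the same length. The windows of Hspg2 (70.3%), Nid1 (64.7%), Lamb1 (63.7%) and Ptch1 (76.3%) were also above this median, and that of Sparc was at 55.3%. High GC was thus not particular to the pair. A GC box occurred in 35.6% of these promoters and a CCAAT box in 37.4%. The Col4a1 window held 1 GC box and that of Col4a2 3, against 5 for Hspg2, 2 for Lamb1, 1 each for Col4a5, Nid1 and Ptch1, and 0 for Sparc. The GLI motif GACCACCCA occurred in 0.253% of promoters on either strand, and in 0 of the windows of Col4a1, Col4a2, Col4a5, Lamb1, Nid1, Hspg2, Sparc and Ptch1. Lamc1 and Nid2 were not matched in the promoter table.

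Cells were kept from 5000 UMIs upward if no more than 10% of these were mitochondrial, which left 571 to 6520 per library, with 19422658 to 106128757 UMIs in all. The median kept cell had 8025 UMIs at 19 h in the no-Dox arm and 28335 to 48188 in the other 8 libraries. Cells under 1% mitochondrial UMIs made up 17.87% to 19.69% of the kept cells at 30 h in the no-Dox arm and at 19 and 30 h in the Dox arm, and 0.43% to 1.41% elsewhere. Any 2 libraries shared at most 9 kept barcodes. Of 10 fibroblast markers, 8 were at 10 CPM or more in every library (CPM, UMIs per 1000000 after TMM scaling). All 7 endothelial and all 7 epithelial markers stayed under 1 CPM, Erg at 0. The summed level of 6 smooth muscle or myofibroblast markers was 125.9 to 171.4 CPM in Experiment 1 and 300.7 to 498.9 CPM in Experiment 2, where 0 h gave the highest value of each arm. The summed level of 5 pericyte markers, of which 4 stayed under 1 CPM and Kcnj8 was at 0, was 12.1, 21.7 and 18.9 CPM in Experiment 1, 8.47, 8.39 and 13.9 CPM in the no-Dox arm and 13.7, 17.4 and 21.3 CPM in the Dox arm, nearly all of it Cspg4 (8.23 to 21.6 CPM). It was highest at the same hour as Col4a1 in each arm, and its part in the changes of the pair was not tested. Fewer cells that make a transcript and less transcript per cell cannot be told apart in these sums.

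Col4a1 and Col4a2 rose together with SAG, and the size of the rise differed between the experiments. Col4a1, the α1 chain, was at 59.2, 178 and 84.9 CPM in Experiment 1 at 0, 17 and 30 h, at 27.1, 94.7 and 210 CPM in the no-Dox arm at 0, 19 and 30 h, and at 48.1, 270 and 443 CPM in the Dox arm. Col4a2, the α2 chain, followed with 40.2, 97.1 and 50.4 CPM, then 14.8, 43.4 and 88.1 CPM, then 27.1, 127 and 189 CPM. Each 0 h library was the lowest of its arm for both genes, and the 6 libraries with SAG did not overlap the 3 without it. The share of all genes that separate in this way was not computed. In Experiment 1 both genes peaked at 17 h, and in both arms of Experiment 2 they were highest at 30 h.

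**Figure D1:**
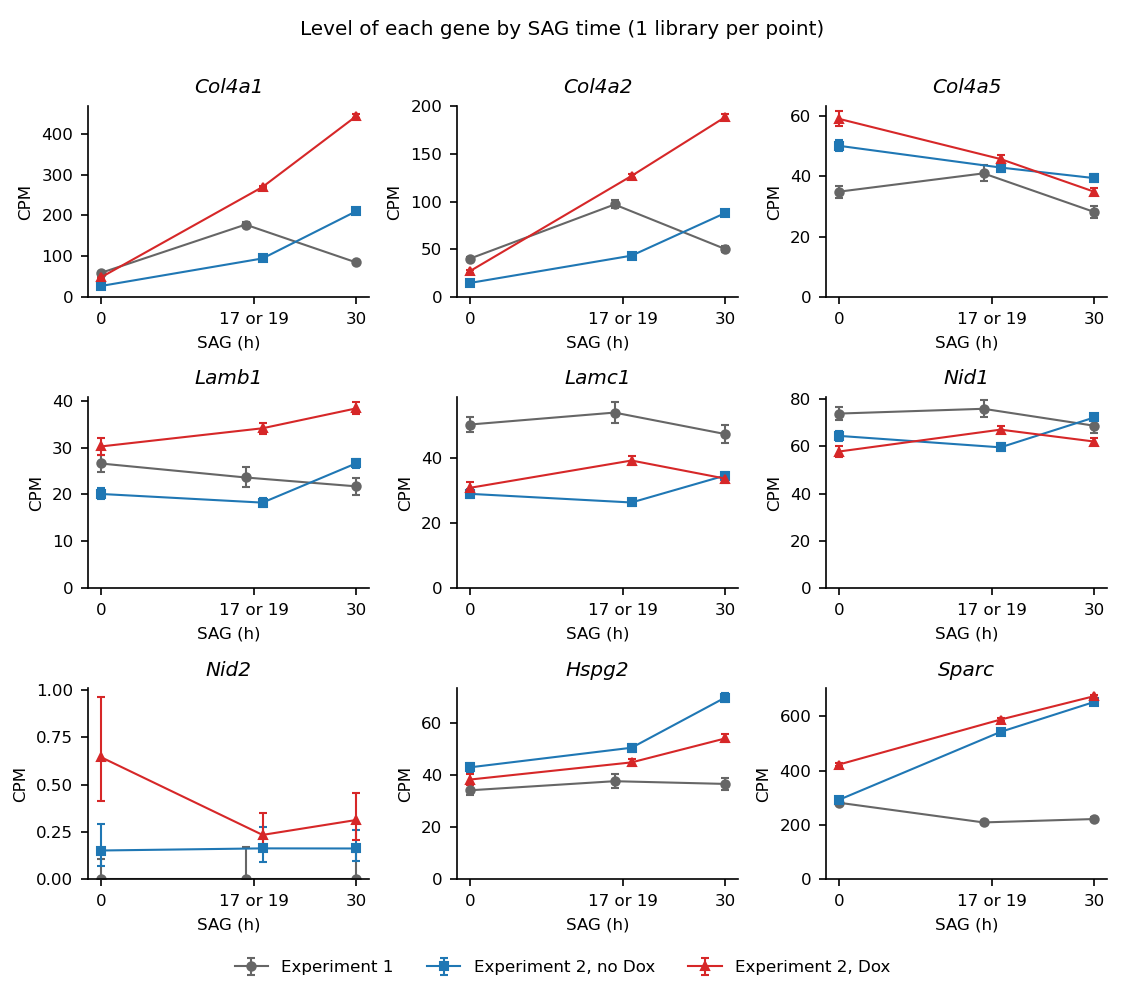
CPM of the 9 genes (y axis, linear from 0) against hours of SAG (x axis), with 1 library per point, 1 line per arm and 95% Poisson bars that cover counting error only. Col4a1 spans 27.1 to 443 CPM and Col4a2 14.8 to 189 CPM, while Nid1 stays between 57.8 and 75.9 CPM.

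At 30 h without Dox, 2 of the 9 genes were called higher and 0 lower (edgeR quasi-likelihood, Benjamini-Hochberg adjusted p under 0.05 over all genes, all 9 libraries fitted with the experiment as a block). Of all 14354 genes tested, 0.139% were called higher and 0.446% in either direction. The log2 change of Col4a1 was 1.89 with an adjusted p = 0.0173 in edgeR (SE 0.39, 2 libraries per time), and Col4a2 rose by 1.56 with an adjusted p = 0.0349 (SE 0.36). Within the arms the rise of Col4a1 was 1.43-fold in Experiment 1, 7.76-fold in the no-Dox arm and 9.21-fold in the Dox arm, and that of Col4a2 was 1.25-fold, 5.95-fold and 6.96-fold. The median change of the 9 genes was 0.09, against -0.01 over all genes. Scaling by library size alone moved the latter to 0.21 and gave 2.14 for Col4a1 and 1.81 for Col4a2. Both calls were lost with DESeq2 (adjusted p = 0.868 and 0.852), without the block, on the 6 libraries without Dox alone (adjusted p = 0.137 and 0.177, edgeR), and without either the 0 h or the 30 h library of the no-Dox arm. Col4a2 alone was lost without the 19 h or the 30 h library of the Dox arm (adjusted p = 0.0664 and 0.0610). Without the 30 h library of the no-Dox arm the change of Col4a1 was 0.59 and that of Col4a2 0.41, and without the 0 h library they were 1.18 and 0.90. Without the 30 h library of Experiment 1 they were 2.90 and 2.50, and without its 0 h library 2.51 and 2.17, with both calls made.

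**Figure D2:**
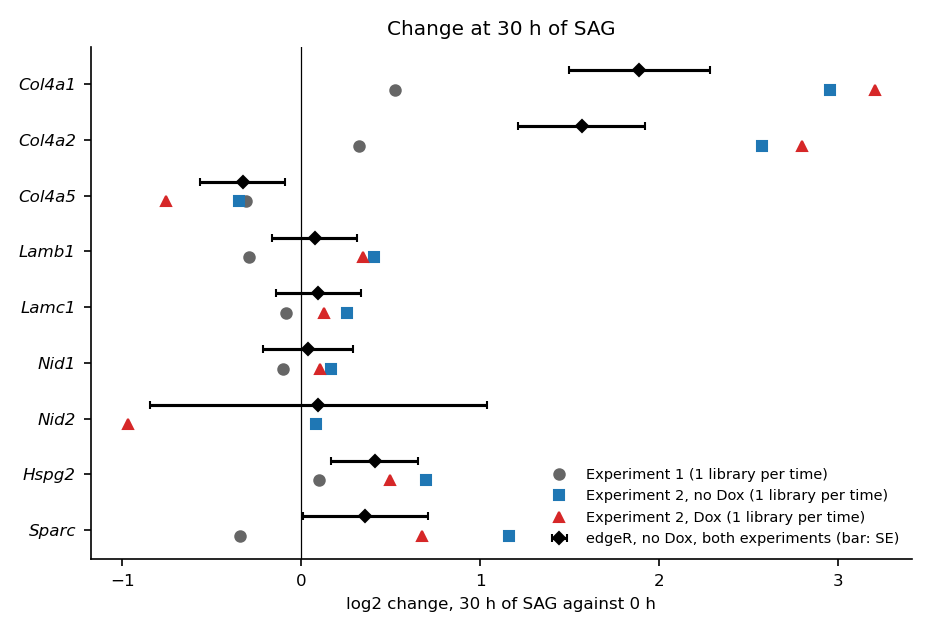
Change of each gene from 0 h to 30 h of SAG on the log2 scale (x axis). Diamonds are the edgeR estimates without Dox with their SE, and the other symbols are differences between 1 library and 1 library within an arm (Nid2 of Experiment 1, at 0 in every library, is left out). Col4a1 and Col4a2 lie near 3 in both arms of Experiment 2 and at 0.52 and 0.32 in Experiment 1.

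At 17 to 19 h, 0 of the 9 genes were called, with 0.111% of all genes called in either direction. Col4a1 and Col4a2 were the 2 members with an unadjusted p under 0.05 in edgeR, the former at 1.67 (adjusted p = 0.0740, SE 0.37) and the latter at 1.38 (adjusted p = 0.142, SE 0.34), and DESeq2 called 0 members. Yet the rise within each arm was already 3.0-fold for Col4a1 at 17 h in Experiment 1, 3.49-fold at 19 h in the no-Dox arm and 5.60-fold in the Dox arm. The call depended on the settings: both genes were called without the filter on low counts (adjusted p = 2.75e-05 for Col4a1, edgeR) and without the mitochondrial limit (4.08e-06). Leaving out 1 library at a time also gave both calls for the 0 h and 30 h libraries of Experiment 1 and the 19 h and 30 h libraries of the no-Dox arm, with Col4a1 at 1.69 to 2.46. Without the 17 h library of Experiment 1 the change was 1.07 for Col4a1 and 0.88 for Col4a2, and without the 0 h library of the no-Dox arm it was 1.14 and 0.86, with no call.

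From 17 to 19 h to 30 h the experiments parted. The difference for Col4a1 was -1.06 on the log2 scale in Experiment 1, 1.15 in the no-Dox arm and 0.72 in the Dox arm, and for Col4a2 it was -0.95, 1.02 and 0.57. Pooled over both experiments 0 of the 9 genes were called (edgeR, 0.00697% of all genes called, 0 members at an unadjusted p under 0.05, and 0 called by DESeq2). The difference between the experiments was then tested itself, in a fit with the 3 arms as blocks that treats the Dox arm as a repeat of the SAG course in Experiment 2. This fit was chosen after the data were seen, and with 1 library per time in Experiment 1 its spread comes from Experiment 2 alone. The change from 17 to 19 h to 30 h was higher in Experiment 2 by 1.99 for Col4a1 (SE 0.29, adjusted p = 1.34e-05, edgeR) and by 1.73 for Col4a2 (SE 0.27, adjusted p = 0.000101). These were 2 of 9 members, with 0.286% of all genes called and 0.188% higher.

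For the whole change from 0 h to 30 h the difference between the experiments was 2.55 for Col4a1 (SE 0.29, adjusted p = 4.37e-10) and 2.36 for Col4a2 (SE 0.28, adjusted p = 1.26e-09), and Sparc was the third member called higher in this edgeR fit, with 17% of all genes called and 9.36% higher. Over 12 alternatives the Col4a1 difference was 2.33 to 3.08 and the Col4a2 difference 2.14 to 2.89, and neither call was lost. None of the 12 left out a library of Experiment 1, so the dependence on its single libraries was not tested. From 0 h to 17 to 19 h the difference was 0.57 for Col4a1 (SE 0.28, adjusted p = 0.251) and 0.63 for Col4a2 (SE 0.27, adjusted p = 0.168), with 6.43% of all genes called and 3.45% higher, so that the response of the pair was not shown to differ at the earlier time, although both were called by library sizes alone and without the 19 h library of the no-Dox arm. Scaling by library size alone put the median of all genes at 0.61 for the 30 h difference, 0.44 for that of 17 to 19 h and 0.14 for the later step. It moved the split of higher and lower calls from 1343 and 1097 to 3949 and 322 at 30 h, where 7 members were called, from 495 and 428 to 1391 and 208 at 17 to 19 h, and from 27 and 14 to 16 and 5 for the later step. The pathway readout also parted. For Ptch1 the difference was called already at 17 to 19 h (1.65, SE 0.31, adjusted p = 0.000195, edgeR). There neither that of the pair nor that of Gli1 (1.95, SE 0.80) was called. Ptch1 was at 5.14, 21.2 and 9.86 CPM in Experiment 1 and at 3.56, 29.9 and 55.9 CPM in the no-Dox arm, and Gli1 went from 7.91 to 3.98 CPM after 17 h in Experiment 1 and from 8.16 to 16.8 CPM after 19 h in the no-Dox arm. The experiments also differed in hour (17 against 19), software version and depth, and the part of these in the result was not tested.

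**Figure D3:**
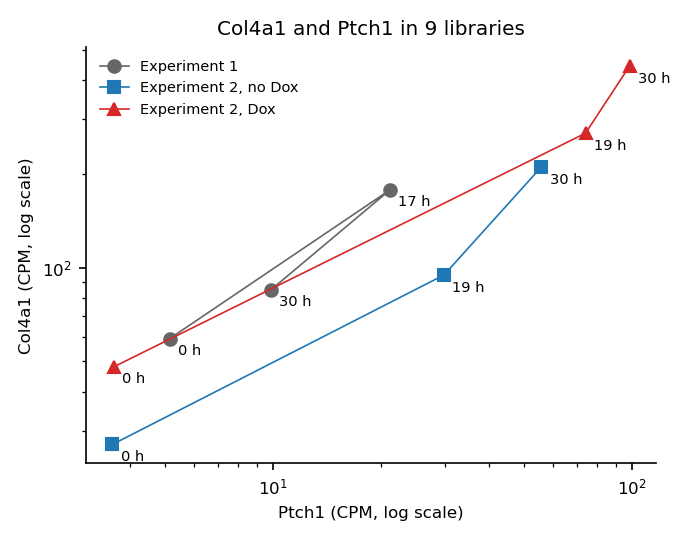
Col4a1 (y axis) against Ptch1 (x axis), both in CPM on log scales, 1 point per library with its hour of SAG, and a line through each arm in order of time. Experiment 1 turns back after 17 h for both genes, from 178 to 84.9 CPM of Col4a1 and from 21.2 to 9.86 CPM of Ptch1, while both arms of Experiment 2 go on upward.

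Over the 9 libraries, Col4a2 was the gene most like Col4a1 of 7969 genes that reached 10 CPM in some library (Pearson's r of log2(CPM + 1) = 0.989). Next came Cttnbp2nl (0.976), Rb1cc1 (0.971), Itpr3 (0.971) and Msn, the actin-binding protein moesin (0.971). Ptch1 stood at rank 28 (0.946) and Gli1 at rank 35 (0.943). The least alike were Tpm4, a tropomyosin (-0.983), Stmn1, a microtubule-destabilising protein (-0.969), and Cwc15 (-0.948). The other members ranked far lower: Lamb1 was at 0.610, Sparc at 0.537, Hspg2 at 0.524, Nid1 at 0.187, Lamc1 at 0.185 and Col4a5 at -0.346. These libraries share experiments, depth and the SAG course, so the values are a description only.

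With Dox the pair was higher at every time. In Experiment 2, 4 of the 9 genes were called higher and 0 lower with Dox (edgeR, SAG time as a term, n = 3 libraries per arm), but 37% of all genes were called in this comparison and 18.6% higher. Col4a1 was higher by 1.14 (SE 0.14, adjusted p = 5.53e-09) and Col4a2 by 1.18 (SE 0.13, adjusted p = 5.42e-10). The difference was 0.83, 1.51 and 1.07 for Col4a1 at 0, 19 and 30 h and 0.87, 1.55 and 1.10 for Col4a2, so it was present before SAG. Both genes of the pathway readout were also called higher with Dox. Gli1 was higher by 0.94 (SE 0.14, adjusted p = 8.15e-07, edgeR) and Ptch1 by 0.81 (SE 0.14, adjusted p = 1.56e-05). For Ptch1 the difference was 0.02, 1.31 and 0.82 at 0, 19 and 30 h. For Gli1 it was 1.27 and 0.61 at 19 and 30 h, and 0 h rested on 5 UMIs with Dox and 3 without. The part of the readout in the Dox difference of the pair was not tested. Lamb1, the laminin β1 chain, was at 30.2, 34.1 and 38.3 CPM with Dox and at 20.1, 18.3 and 26.6 CPM without, and was higher by 0.67 (SE 0.11, adjusted p = 6.81e-06). Its 3 libraries with Dox all lay above the 3 without, but how many of all genes did so was not counted. Nid2 rested on 24, 23 and 28 UMIs with Dox against 9, 14 and 17, a difference of 1.13 (SE 0.36, adjusted p = 0.0110) that was lost with DESeq2 and without either 0 h library. Scaling by library size alone, without TMM, moved the median of all genes from 0.02 to 0.41 and the split of calls from 2638 higher and 2601 lower to 6981 and 495. Under it 8 members were called, Nid1 turned from -0.07 to 0.32 and Hspg2 from -0.24 to 0.16, and the pair was higher by 1.53 and 1.57.

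Whether SAG raised the pair further with Dox was not resolved. The difference of the 30 h change, with Dox minus without Dox over both experiments, was 1.32 for Col4a1 (SE 0.65) and 1.24 for Col4a2 (SE 0.59), and 0 of the 9 members and 0% of all genes were called by edgeR, with 1 member at an unadjusted p under 0.05, and 0 by DESeq2. Within Experiment 2 the changes with and without Dox were 3.20 and 2.96 for Col4a1 and 2.80 and 2.57 for Col4a2, and Experiment 1 had only 0.52 and 0.32. Without the 0 h library of the no-Dox arm both genes crossed the threshold, but the calls over all genes rose as well. There 0 h without Dox rested on 1 library, that of Experiment 1.

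Col4a5, the α5 chain of a second type of collagen IV helix, did not follow its relatives. It was at 34.9, 41.0 and 28.2 CPM in Experiment 1, at 50.2, 43.0 and 39.5 CPM in the no-Dox arm and at 59.1, 45.8 and 34.9 CPM in the Dox arm. It was lower at 30 h than at 0 h in 3 of 3 arms, by 0.31, 0.35 and 0.76 on the log2 scale, and the test gave -0.33 (SE 0.24, adjusted p = 0.661, edgeR). Of the other collagen IV chains, Col4a6 stayed between 12.6 and 21.8 CPM, Col4a4 between 0.179 and 2.75 CPM, and Col4a3 at 0.221 CPM or less.

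The laminin chains varied 2.10-fold (Lamb1) and 2.05-fold (Lamc1) over the 9 libraries, about as much as Col4a5 (2.10-fold), and nidogen 1 varied less. Lamb1 was at 26.6, 23.6 and 21.7 CPM in Experiment 1, and its change of 0.07 at 30 h was not called (SE 0.24, adjusted p = 0.946, edgeR). Lamc1 (ENSMUSG00000026478, chromosome 1, 153218922 to 153332786), the γ1 chain with which β1 pairs, was at 50.4, 54.1 and 47.5 CPM in Experiment 1, at 29.1, 26.4 and 34.7 CPM in the no-Dox arm and at 30.9, 39.3 and 33.8 CPM in the Dox arm. Its 3 libraries of Experiment 1 lay above all 6 of Experiment 2, and how common this was among all genes was not counted. Between the experiments without Dox, 40.5% of all genes were called by edgeR. Nid1 (ENSMUSG00000005397, chromosome 13, 13437551 to 13512269), which links laminin to collagen IV, varied 1.31-fold over the 9 libraries. Neither Lamc1 (0.09, SE 0.24, adjusted p = 0.928, edgeR) nor Nid1 (0.04, SE 0.25, adjusted p = 0.979) was called at 30 h.

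Nid2 (ENSMUSG00000021806, chromosome 14, 19751265 to 19811787), the other nidogen, had 0 UMIs in the 3 libraries of Experiment 1, which allows up to 0.0882, 0.140 and 0.116 CPM, and 9 to 28 UMIs in those of Experiment 2. No change with SAG could be read at this depth.

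Hspg2 (ENSMUSG00000028763, chromosome 4, 137468769 to 137570630), which encodes the heparan sulfate proteoglycan perlecan, was at 34.1, 37.6 and 36.5 CPM in Experiment 1, at 42.9, 50.4 and 69.5 CPM in the no-Dox arm and at 38.2, 44.8 and 53.9 CPM in the Dox arm. It was higher at 30 h than at 0 h in 3 of 3 arms, and its change of 0.41 (SE 0.24, adjusted p = 0.582, edgeR) was not called.

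Sparc (ENSMUSG00000018593, chromosome 11, 55394500 to 55423183) responded differently in the experiments. It was at 283, 210 and 222 CPM in Experiment 1, at 293, 543 and 653 CPM in the no-Dox arm and at 423, 589 and 675 CPM in the Dox arm. Its 2 later libraries lay below 0 h in Experiment 1 and above 0 h in both arms of Experiment 2. The pooled change at 30 h was 0.36 (SE 0.35, adjusted p = 0.753, edgeR). It was 1.11 without the 0 h library of Experiment 1 (adjusted p = 0.0637) and 0.79 without its 30 h library, and turned to -0.30 without the 0 h library and -0.04 without the 30 h library of the no-Dox arm, none of them called. The difference of the 30 h change between the experiments was 1.26 (SE 0.30, adjusted p = 0.00178, edgeR), with 17% of all genes called. That of the 17 to 19 h change was 1.11 (SE 0.30, adjusted p = 0.0130, edgeR). There Sparc was the 1 of 9 members called, with 6.43% of all genes called and 3.45% higher. The 17 to 19 h call was lost in 5 of 12 alternatives and the 30 h call in 2 of 12, without the 0 h or the 30 h library of the no-Dox arm.

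Levels also differed between Experiment 1, whose labels leave Dox open and which is assumed to be without it, and the no-Dox arm, in a comparison that called 40.5% of all genes. Of the 8 members tested, Sparc was higher in Experiment 2 by 1.0 (SE 0.29, adjusted p = 0.0114, edgeR) and Hspg2 by 0.57 (SE 0.19, adjusted p = 0.0265), and Lamc1 was lower, at -0.75 (SE 0.19, adjusted p = 0.00434). These values average over the SAG times. At 0 h Sparc was nearly level, at 283 CPM in Experiment 1 and 293 CPM in the no-Dox arm. Its gap lay at the later times, 210 against 543 CPM and 222 against 653 CPM. At 0 h Hspg2 was at 34.1 against 42.9 CPM and Lamc1 at 50.4 against 29.1 CPM. Without TMM the median of all genes moved to -0.47 and the split of calls from 2677 higher and 2593 lower to 1206 and 4496. Of the 3 genes only Lamc1 stayed called under that scaling. All 3 calls were lost without the 17 h library of Experiment 1 or the 19 h library of the no-Dox arm, and Sparc and Hspg2 without either 30 h library.

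Across single cells, r between Col4a1 and Col4a2 was above 0 in every library and differed widely between libraries. Kept cells were thinned to 10000 UMIs, and Pearson's r of log2(UMI + 1) was 0.277, 0.621 and 0.400 in Experiment 1 (917, 543 and 559 cells at 0, 17 and 30 h). It was 0.018, 0.194 and 0.412 in the no-Dox arm (2655, 2597 and 2047 cells) and 0.092, 0.387 and 0.448 in the Dox arm (1323, 1935 and 1529 cells). In each arm r was lowest at 0 h, where the genes also had the fewest UMIs, 0.199 to 0.680 of Col4a1 per cell, and counting noise pulls r towards 0 at low counts. Thinned to 5000 UMIs the median over libraries fell from 0.387 to 0.190. That setting took all kept cells, while the values above took only those of at least 10000 UMIs. The cells therefore differ as well as the depth. Col4a2 had the highest r with Col4a1 among 7061 genes in 5 of the 9 libraries, among them the 0 h library of Experiment 1. At 0 h it ranked 2482 in the no-Dox arm and 41 in the Dox arm.

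**Figure D4:**
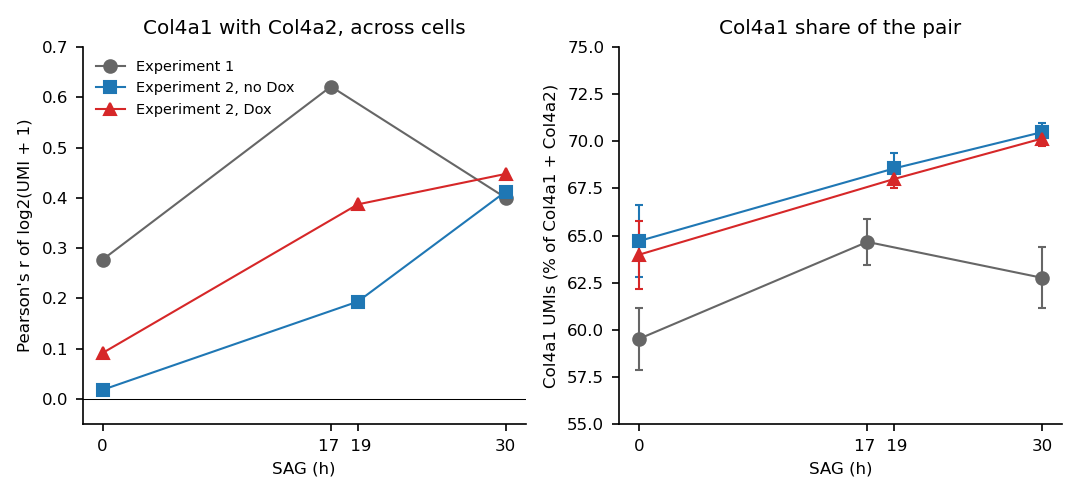
Left, Pearson's r between Col4a1 and Col4a2 across cells thinned to 10000 UMIs (y axis) by hours of SAG (x axis). Right, the Col4a1 percentage of the UMIs of both genes with exact binomial 95% intervals (y axis from 55% to 75%). The points are single libraries, r is lowest at 0 h in each arm, and the share is 59.5% at the lowest and 70.5% at the highest.

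By the median r over libraries the genes after Col4a2 (0.387) were Fn1, fibronectin (0.326), the fibrillar collagen genes Col1a2 (0.309) and Col3a1 (0.265), Lox, the lysyl oxidase that crosslinks collagen (0.228), Col16a1 (0.227), Ncam1, a cell adhesion molecule (0.225), and Col1a1 (0.214). The lowest were the ribosomal protein genes Rps2 (-0.214), Rpsa (-0.188) and Rplp0 (-0.187). The 99th percentile over all genes ranked was 0.115. Sparc ranked 21 (0.168), while Nid1 (0.080), Lamc1 (0.073), Lamb1 (0.070), Hspg2 (0.063) and Col4a5 (0.045) ranked 192 to 802. Since low counts pull r towards 0, these ranks may also follow abundance, and the part of abundance in them was not tested. Nid1 was not scarcer than Col4a2 in every library. At 0 h in Experiment 1 it had 0.880 UMIs per cell against 0.510, with r of 0.080 against 0.277. At 17 h it had 0.851 against 1.14, with r of 0.099 against 0.621.

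More cells had a Col4a1 UMI after SAG in every arm. At 10000 UMIs, cells with a Col4a1 UMI made up 42.2% at 0 h, 63.4% at 17 h and 49.2% at 30 h in Experiment 1 (95% exact binomial intervals 39.0% to 45.5%, 59.1% to 67.4% and 45.0% to 53.4%, counting error only). They made up 16.9%, 49.8% and 77.2% in the no-Dox arm and 31.6%, 87.6% and 95.2% in the Dox arm. Unthinned, over all kept cells, the shares were 71.9%, 36.1% and 61.5% at 0 h in Experiment 1, the no-Dox arm and the Dox arm. In the SAG-treated libraries they were 52.7% to 98.5%, a range that overlaps the 0 h values, though above the 0 h value within each arm. At 17 h in Experiment 1 the variance of Col4a1 over its mean was 3.59, against 2.41 at 19 h with Dox where the mean was higher (1.98 against 3.18 UMIs per cell), and the tenth of cells with the most Col4a1 held 42.6% of its UMIs against 29.2%. No cell type without Col4a1 was present to measure free RNA, and its part in these shares was not tested.

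**Figure D5:**
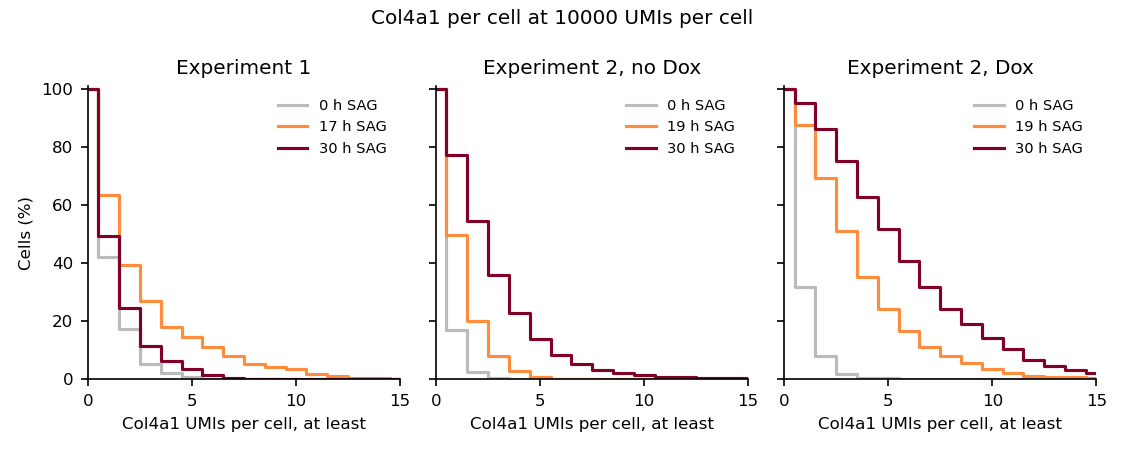
Percentage of cells (y axis) with at least the given number of Col4a1 UMIs (x axis, drawn to 15) after thinning to 10000 UMIs per cell, 1 line per library. With Dox 95.2% of cells at 30 h have at least 1 UMI, and in Experiment 1 the 17 h line lies above the 30 h line.

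Col4a1 UMIs made up 59.5%, 64.7% and 62.8% of the UMIs of the pair in Experiment 1, 64.7%, 68.6% and 70.5% in the no-Dox arm and 64.0%, 68.0% and 70.1% in the Dox arm. The 0 h share was the lowest of each arm, and the exact binomial 95% intervals at 0 h and at 17 or 19 h did not overlap in any arm (57.8% to 61.2% and 63.4% to 65.9% in Experiment 1). These intervals cover counting error only and set 1 library beside 1 library, so they are no test of SAG. Among cells with at least 10 UMIs of the pair, the variance of the share over that of binomial sampling was 0.92 to 1.30 in the 7 libraries where it was computed, where 1 is the spread that counting alone gives.

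Col4a1 had more UMIs on average in cells with a Gli1 UMI. The ratio of mean Col4a1 UMIs in cells with and without Gli1 was 1.78 at 17 h (51 cells with Gli1) and 1.57 at 30 h (25 cells) in Experiment 1. It was 1.16 (173 cells) and 1.34 (317 cells) at 19 and 30 h in the no-Dox arm, and 1.12 (430 cells) and 1.20 (395 cells) in the Dox arm. It was above 1 in 6 of 6 SAG-treated libraries, as for Ptch1 (1.41 to 3.25). For Col4a2 it was above 1 in 5 of 6 libraries (0.96 to 1.73), and it was also above 1 for Sparc in 6 of 6 (up to 1.45), for Col4a5 in 5 of 6, for Hspg2, Lamb1 and Nid1 in 4 of 6 and for Lamc1 in 3 of 6 (0.63 to 1.06), so a ratio above 1 was not particular to the pair. Pearson's r between Col4a1 and Gli1 was 0.184 and 0.080 in Experiment 1, 0.037 and 0.132 in the no-Dox arm and 0.061 and 0.145 in the Dox arm, weak in sparse counts, and cells of 1 library are not replicates.

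The level of Col4a1 differed between cells of different mitochondrial share in several libraries. At 30 h in the no-Dox arm, Col4a1 was at 209 UMIs per 1000000 in cells under 1% mitochondrial UMIs and at 207 in those of 1% to 10%. The values in the Dox arm were 257 and 332 at 19 h, and 499 and 526 at 30 h, and at 19 h in the no-Dox arm they were 48.9 (110 UMIs) and 77.7. The cells over 10%, left out above, held more Col4a1 than those of 1% to 10% in Experiment 1, at 367.5 against 197 at 17 h and 171 against 94.2 at 30 h. Without the cells under 1% the 30 h change of Col4a1 was 1.87 (adjusted p = 0.0135, edgeR) and that of Col4a2 1.54 (adjusted p = 0.0290).

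No gene of the wider machinery of the basement membrane was called with SAG, in tests that called few genes. The lists held 3 other collagen IV chains, 9 other laminin chains, 19 other basement membrane components, 20 genes of collagen folding, modification and export, and 16 receptors. Of their 67 genes 53 were tested, and edgeR called 0 at 17 to 19 h, 0 at 30 h and 0 between these times. At 30 h 5 were higher and 1 lower at an unadjusted p under 0.05, and 0 were called by DESeq2. Over all genes edgeR called 0.111%, 0.446% and 0.00697% at these steps, so 0 of 53 does not set these genes apart. Their median change at 30 h was 0.03, against -0.01 over all genes. In the added test of the experiments, 11 of the 53 had a 30 h change higher in Experiment 2 and 1 lower, among them Gpc1, a glypican coreceptor (2.04, SE 0.25, adjusted p = 8.17e-09, edgeR), Lamb2, the laminin β2 chain (0.86, SE 0.26, adjusted p = 0.0141), and P4ha3, a collagen prolyl hydroxylase (1.40, SE 0.33, adjusted p = 0.00157). The share called over all genes there was 9.36% higher and 7.64% lower. DESeq2 called 3 of the 53 higher and 1 lower in this comparison, and 0 of the laminin chains, so the call of Lamb2 was lost.

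With Dox 16 of 52 tested list genes were called higher and 10 lower, against 18.6% higher and 18.4% lower over all genes. Itgb4, the integrin β4 subunit of the laminin receptor, was higher by 1.29 (SE 0.14, adjusted p = 2.47e-10, edgeR), at 4.71 to 5.58 CPM with Dox and 1.69 to 2.36 CPM without. P3h3, a prolyl 3-hydroxylase, was higher by 0.77 (SE 0.11, adjusted p = 3.26e-07), while P4ha2, a prolyl 4-hydroxylase, was lower, at -0.79 (SE 0.12, adjusted p = 3.80e-07), and so was Tinagl1, a matrix protein (-0.80, SE 0.12, adjusted p = 2.53e-07). The laminin α chains Lama2, Lama4 and Lama5 were called higher at levels of 1.49 CPM or less in every library. Between the experiments without Dox, 10 of 49 list genes were higher and 10 lower in Experiment 2, against 20.6% and 19.9% over all genes, with Itga3 at 1.98 (SE 0.22, adjusted p = 2.43e-06) and Itga7 at -3.44 (SE 0.30, adjusted p = 1.16e-07), both laminin-binding integrin subunits.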

How the data were processed

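The deposited matrices hold raw UMI counts (genes by barcodes). Per the submitters' processing notes the authors used Cell Ranger and mm10, and per the file headers software 3.1.0 wrote Experiment 1 (31054 features) and 6.0.1 Experiment 2 (32286). Whether counting used the strand is not given in the sources used here. Counts of kept cells were summed per library, so libraries are the replicates, and the labels do not say whether cultures were separate, so p-values reflect only how far these libraries spread, possibly for technical reasons. The tests used edgeR 4.0.16 (quasi-likelihood after filterByExpr and TMM, 2 residual degrees of freedom) in R 4.3.3, and DESeq2 1.42.0 was the alternative. The SE of a change is its size over the root of F. Conditions with Dox have 1 library each, assumed to vary as the others. The experiment number was a block: deviations from the group means correlated between times (r = 0.681 to 0.788 over 14354 genes). Levels are TMM-scaled CPM with exact Poisson intervals, and a count of 0 allows 3 counts. Within an arm, changes subtract log2 CPM values (prior count 2). Python 3.11.15 thinned the cells. Doublets were not called. The statistics were tested on simulated data. Members and lists were chosen with earlier results of these data known. Named genes were the members, Gli1, Ptch1, called list genes (up to 4 per list by p) and those most and least like Col4a1.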

Additional observations from a re-analysis of the deposited data

Results flagged for a closer look

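The 6 differences listed here, between the experiments in SAG changes of Col4a1, Col4a2 and Sparc each stood out by the edgeR test of the difference itself, which was added after the data were seen. The change from 0 h to 30 h was higher in Experiment 2 by 2.55 for Col4a1, 2.36 for Col4a2 and 1.26 for Sparc on the log2 scale. The change from 17 to 19 h to 30 h was higher by 1.99 for Col4a1 and 1.73 for Col4a2, and that from 0 h to 17 to 19 h by 1.11 for Sparc. For the last 3 of these, and for Sparc at 30 h, the single library differences had opposite signs in Experiment 1 and in both arms of Experiment 2. The fit takes the response in Experiment 2 to be alike with and without Dox, and the hour, software and depth of the experiments cannot be told apart from it.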

How the results depend on the processing

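Under the alternatives 813 changes of single members were recomputed, those in the added tests of the experiments left out. Of these, 756 kept their side of the threshold, 27 lost a call and 29 gained one. The 756 include changes of sign that neither fit called, such as those of Sparc at 30 h. The 1 other reversed with a call, Nid1 with Dox by library sizes alone (0.32). At 30 h the 2 calls became 0 with DESeq2, 0 without the replicate block, 0 on the libraries without Dox and 0 to 2 when leaving out 1 library each; blocks for the 3 arms, an alternative added after seeing the data, kept 2. At 17 to 19 h the count of 0 became 1 by library sizes alone, 2 without the filter on low counts, 2 without the mitochondrial limit, 1 at 10000 UMIs per cell and 0 to 2 leaving out 1 library. Leaving out 1 library gave 0 to 2 members for the SAG response with against without Dox and 0 to 4 for the experiments, where no filter and no mitochondrial limit each gave 5. Over all genes, no filter called 5289 of 19915 between the experiments and no mitochondrial limit 5734 of 13604. At 17 to 19 h, library sizes alone called 19 of 14354 genes and no filter 43 of 20991. There no mitochondrial limit called 54 of 15123 and the limit of 10000 UMIs per cell 24 of 14371. With Dox, library sizes alone gave 8 members, with 7476 of 14162 genes called. The r of Col4a1 and Col4a2 had a median of 0.190 at 5000 UMIs over all kept cells. Over all genes, at 30 h edgeR called 64 genes, DESeq2 12 and the 3 arms as blocks 774. The cause was not tested. Depth limits Nid2 and the share of cells with a UMI, and 2 residual degrees of freedom limit each test.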
